A study of Homo sapiens with 14 samples.

Results

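The 8 genes described here encode core parts of the pathway that runs from phosphoinositide 3-kinase (PI3K) through the kinase AKT to the kinase mTOR. They are PIK3CA, PIK3R1, AKT1, AKT2, MTOR, RPTOR, RICTOR and TSC1, chosen by name and matched through their symbols to the Ensembl identifiers of a table of read counts for 18006 genes. Of the 8, 7 have a row in that table, and PIK3CA was not analysed here. PIK3R1 is listed at 0 counts in all 14 libraries, which leaves 6 of the 8 genes among the 12080 genes with enough counts to test.

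In this pathway PI3K makes a membrane lipid that recruits AKT. PIK3CA encodes a catalytic subunit of PI3K and PIK3R1 a regulatory one. AKT1 and AKT2 are paralogous kinases that act on growth, survival and glucose metabolism. AKT phosphorylates the partner of TSC1 in a complex that holds mTOR complex 1 in check by way of the small GTPase RHEB. MTOR is the kinase of both mTOR complexes, RPTOR is the defining subunit of complex 1, which drives protein synthesis and restrains autophagy, and RICTOR is the defining subunit of complex 2, which phosphorylates AKT.

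The cells were HEK 293, an established line from human embryonic kidney. The 5 groups were CFIm25 knockdown (2 libraries), CFIm68 knockdown (3), CFIm25 overexpression (3), CFIm68 overexpression (3) and control (3), the last labelled wild type. NUDT21 encodes CFIm25 and CPSF6 encodes CFIm68, subunits of cleavage factor Im, which binds UGUA in pre-mRNA and takes part in the choice of the 3′ end. The labels name siRNA given with a lipid reagent for the knockdown. They do not say how the subunits were overexpressed, in which clone or pool of cells, or what the controls were given. In every comparison with control, the treatment itself and the subunit's level therefore cannot be told apart. No label states that replicates are separate cultures, and the p-values then measure only a spread between libraries that may be technical.

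Libraries held 15822467 to 33895308 counts over genes. Values are CPM, a gene's counts relative to the library's total after scaling by the trimmed mean of M-values, given per library in replicate order or as mean ± SD. NUDT21 averaged 53.8 ± 1.20 CPM in CFIm25 knockdown (n = 2) and 729 ± 55.6 CPM in CFIm25 overexpression (n = 3), against 514 ± 19.6 CPM in control (n = 3). CPSF6 averaged 41.6 ± 0.996 CPM in CFIm68 knockdown and 730.2 ± 17.4 CPM in CFIm68 overexpression, against 268 ± 5.78 CPM in control (n = 3 each). Both target genes moved as labelled, and each also differed where the other subunit was reduced: NUDT21 averaged 232 ± 9.27 CPM in CFIm68 knockdown, and CPSF6 averaged 533 ± 10.2 CPM in CFIm25 knockdown. Of 8 HEK 293 markers, VIM, NEFL, KRT8, KRT18 and CDH2 carried the summed level, while PAX2, LHX1 and NEFM were low. The sum was 1669 to 1696 CPM in CFIm25 knockdown, 1811 to 1842 CPM in CFIm68 knockdown, 1903 to 2059 CPM in CFIm25 overexpression and 1808 to 1872 CPM in CFIm68 overexpression, against 1868 to 1960.1 CPM in control. The 10 markers of other cell types summed to 66.4 to 66.9 CPM in CFIm25 knockdown, 87.2 to 91.5 CPM in CFIm68 knockdown, 80.5 to 94.1 CPM in CFIm25 overexpression and 67.3 to 69.6 CPM in CFIm68 overexpression, against 76.9 to 83.4 CPM in control. COL1A1, ACTA2 and KRT17 made up most of it, and PTPRC and HBB were at 0 in every library. The part of these marker differences in the results below was not tested.

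The zeros of PIK3R1 are not read as absence of expression. HSPA8, a chaperone gene that every cell uses, is also listed at 0 in every library, as are 2524 genes of the table in all. On the lists of related pathway genes below, 9 genes share this state: IGF1R, ERBB2, ERBB3, GAB1, SGK1, PRR5L, DEPDC5, ITFG2 and TFEB.

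CFIm acts through UGUA in the 3′ untranslated region (UTR), so the annotated 3′ ends of the 6 measured genes are shown here. In the GENCODE 29 annotation on GRCh38, the 3′ UTR of the principal transcript is 4887 bases long in TSC1, 4385 in RICTOR, 3555 in AKT2, 2038 in RPTOR, 992 in AKT1 and 950 in MTOR. The median of 11829 tested genes was 1082 bases, and 93.1% of them had a shorter 3′ UTR than TSC1. The motif TGTA, the DNA letters of UGUA, was searched alone and on the transcript strand only. MTOR held 2 matches and RICTOR 1 that started 40 to 100 bases before the annotated 3′ end. AKT1, AKT2, RPTOR and TSC1 held none in that window, and 42.8% of the tested genes held at least 1. Only 1 annotated 3′ end per gene was searched. Shorter 3′ UTRs from the same stop codon are annotated for TSC1, AKT2, AKT1 and RICTOR, down to 37 bases in TSC1 and 31 in AKT2. Each line below shows 30 bases around the last match that starts at least 40 bases before this annotated 3′ end, with that match in capitals. Matches closer to the end were not considered.
MTOR (chr1:11106569-11106598, minus strand, 51 bases before the end): ctagacaccatgtTGTAtcagaataatttt
RICTOR (chr5:38937996-38938025, minus strand, 94 bases before the end): tttttgtataatgTGTAtagtttatgtcaa
AKT2 (chr19:40230548-40230577, minus strand, 248 bases before the end): cctgctctttttgTGTAatcttttccagtt
AKT1 (chr14:104769693-104769722, minus strand, 361 bases before the end): aaatttgttattgTGTAttatgttgttcaa
RPTOR (chr17:80965907-80965936, plus strand, 449 bases before the end): cgggtccggaaggTGTAgagagtcccggcc
TSC1 (chr9:132891808-132891837, minus strand, 477 bases before the end): tggtgctgctctgTGTAgcaagtactttgg
All 6 stretches lie in the last exon, within the 3′ UTR, and that of RICTOR holds a further TGTA in lower case. The distances ran from 51 bases in MTOR to 477 bases in TSC1. Over the whole 3′ UTR the motif was densest in RICTOR, at 7.98 matches per kb, and in MTOR, at 6.32 per kb, against 2.02 per kb in AKT1 and a median of 4.96 per kb over tested genes. A match is a stretch of letters and does not show binding or use of a 3′ end, and gene counts do not tell 3′ ends apart.

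Levels as counted fell into a high and a low set. How reads were assigned to genes is not given, and its part in the gaps between genes was not tested. Per kb of annotated exons, the mean level over the 14 libraries was 39.7 CPM per kb for MTOR, 23.0 for AKT1 and 22.8 for AKT2, against 1.07 for TSC1, 0.827 for RPTOR and 0.826 for RICTOR. Per kb, the order of the 2 AKT genes was not fixed: in control AKT1 was at 22.3 ± 0.252 and AKT2 at 24.0 ± 0.0892 CPM per kb (n = 3), while in CFIm25 knockdown AKT1 was at 26.0 ± 0.938 and AKT2 at 22.2 ± 0.353 CPM per kb (n = 2). This order depends on the exon length used: in CPM, AKT2 stayed above AKT1 in CFIm25 knockdown, at 334 ± 5.31 against 290.7 ± 10.5 CPM. In CFIm25 overexpression AKT1 averaged higher on both scales, at 290.7 ± 18.7 CPM against 281 ± 8.83 CPM for AKT2 (n = 3). RPTOR, RICTOR and TSC1 in control, at 0.801 ± 0.0466, 0.804 ± 0.0952 and 0.927 ± 0.105 CPM per kb, lay close together: RICTOR overlapped both others over the 3 control libraries, while TSC1 was above RPTOR in all of them. Counts per library were 112 to 313 for RPTOR and 170 to 354 for RICTOR, so changes in these 2 genes carry standard errors of 0.10 to 0.12 on the log2 scale, against about 0.05 for MTOR with 7442 to 16730 counts.

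**Figure D1:**
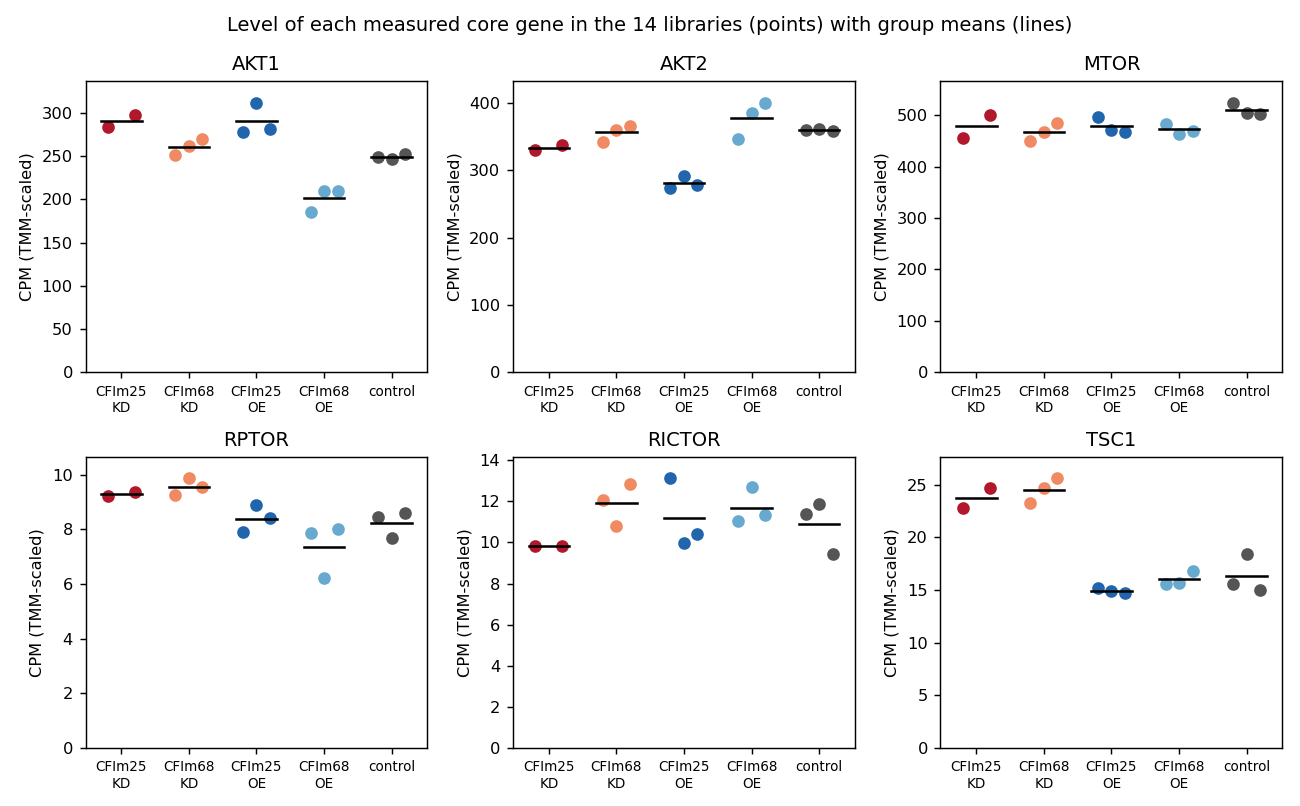
Level of the 6 measured core genes in each library, in CPM on a linear axis from 0 with a separate scale per gene, where points are libraries and lines are group means, with the knockdown (KD) and overexpression (OE) groups left of control. TSC1 lies between 22.7 and 25.6 CPM in the 5 knockdown libraries, against 15.0 to 18.4 CPM in control, while AKT1 is lowest in CFIm68 overexpression and AKT2 lowest in CFIm25 overexpression.

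TSC1, the scaffold of the complex that restrains mTOR complex 1, was higher in both knockdowns. It was at 22.7 and 24.7 CPM in CFIm25 knockdown and at 23.3, 24.6 and 25.6 CPM in CFIm68 knockdown, against 15.5, 18.4 and 15.0 CPM in control. It was at 15.2, 14.9 and 14.7 CPM in CFIm25 overexpression and at 15.5, 15.7 and 16.8 CPM in CFIm68 overexpression. All 5 knockdown libraries lay above all 9 others, and the overexpression libraries overlapped control. The log2 change against control was 0.55 ± 0.09 (SE) in CFIm25 knockdown, 1.46-fold (adjusted p = 1.2e-05), and 0.59 ± 0.08 in CFIm68 knockdown, 1.50-fold (adjusted p = 5.4e-07), by the quasi-likelihood test of edgeR, with Benjamini-Hochberg adjustment over all tested genes. In overexpression the log2 changes were -0.13 ± 0.09 (CFIm25, adjusted p = 0.22) and -0.03 ± 0.09 (CFIm68, adjusted p = 0.85) by the same test, with approximate 95% intervals of -0.30 to 0.04 and -0.20 to 0.15. TSC1 shares 349 exonic bases with GFI1B on the opposite strand, and GFI1B had at most 3 counts in any library. Because these are bulk libraries scaled to a total, more cells with a transcript and more of it per cell cannot be told apart.

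TSC2, the partner of TSC1 and the subunit that AKT phosphorylates, did not rise with it. TSC2 log2 changes were -0.40 ± 0.07 in CFIm25 knockdown (adjusted p = 7.8e-05) and -0.23 ± 0.07 in CFIm68 knockdown (adjusted p = 0.0036, edgeR for both). The ratio of TSC1 to TSC2, each per kb of exons, was 0.146 ± 0.00351 in CFIm25 knockdown (n = 2) and 0.135 ± 0.00274 in CFIm68 knockdown (n = 3), against 0.0762 ± 0.00813 in control (n = 3). The ratio was higher in each knockdown library than in any control library. A regional correction was also run: in each library, every gene's offset was the median, over its 50 nearest tested genes on the chromosome, of the log2 deviation from the control mean. With this correction the TSC2 log2 changes were 0.02 (adjusted p = 0.85) and 0.16 (adjusted p = 0.013) in edgeR, while those of TSC1 stayed at 0.59 and 0.62.

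AKT1 and AKT2 parted from each other under overexpression, in opposite ways for the 2 subunits. AKT1 was at 278, 312 and 281 CPM in CFIm25 overexpression and at 186, 210.0 and 209.7 CPM in CFIm68 overexpression, against 249.7, 247 and 252 CPM in control. AKT2 was at 274, 291 and 279 CPM in CFIm25 overexpression and at 347, 385 and 401 CPM in CFIm68 overexpression, against 361, 361 and 359 CPM in control. For AKT1 the CFIm25 overexpression libraries were all above control and the CFIm68 overexpression libraries all below it, and for AKT2 the CFIm25 overexpression libraries were all below control while those of CFIm68 overexpression overlapped it. In edgeR AKT1 rose in CFIm25 overexpression by 0.22 ± 0.05 on the log2 scale (adjusted p = 0.0011) and fell in CFIm68 overexpression, with a log2 change of -0.31 ± 0.06 (adjusted p = 1.1e-04). AKT2 fell in CFIm25 overexpression, with a log2 change of -0.36 ± 0.05 (adjusted p = 1.0e-06), and its change in CFIm68 overexpression was 0.07 ± 0.05 (adjusted p = 0.34). Set directly against CFIm25 overexpression, CFIm68 overexpression had AKT1 lower, with a log2 difference of -0.53 ± 0.05 (adjusted p = 2.4e-09), and AKT2 higher by 0.42 ± 0.05 (adjusted p = 3.5e-08), both by edgeR.

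**Figure D2:**
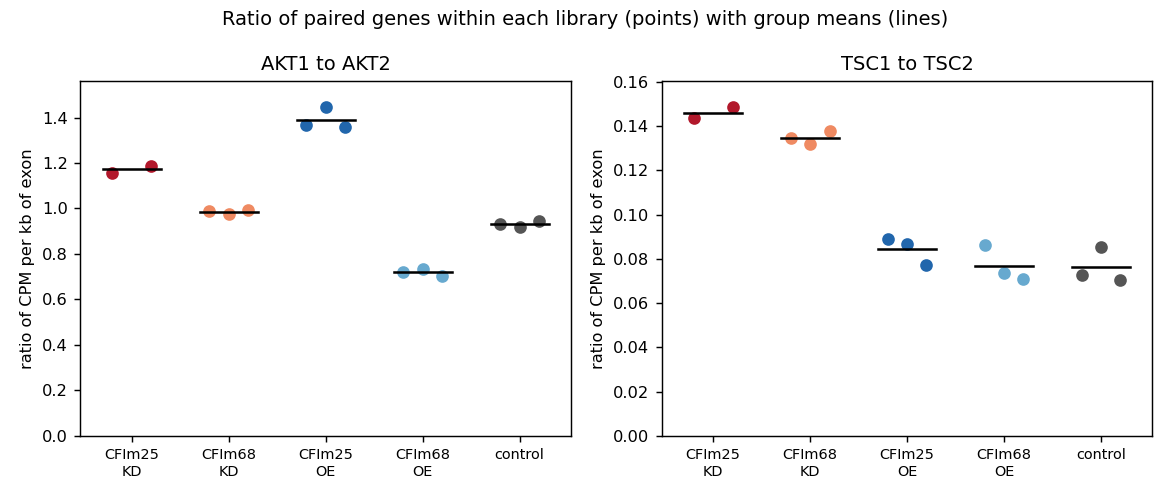
Ratio of AKT1 to AKT2 and of TSC1 to TSC2 in each library, each gene in CPM per kb of exons, on linear axes, with points for libraries, lines for group means and the knockdown (KD) and overexpression (OE) groups left of control. The AKT1 to AKT2 ratio averages 1.39 in CFIm25 overexpression and 0.720 in CFIm68 overexpression, against 0.933 in control, and the TSC1 to TSC2 ratio is high in both knockdowns.

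In the knockdowns AKT1 was at 283 and 298 CPM with CFIm25 reduced and at 251, 261 and 270.3 CPM with CFIm68 reduced. The CFIm25 knockdown libraries lay above all 3 controls, and those of CFIm68 knockdown overlapped control. AKT1 rose in CFIm25 knockdown by 0.22 ± 0.06 on the log2 scale (adjusted p = 0.0034) and stood at 0.07 ± 0.05 in CFIm68 knockdown (adjusted p = 0.31), by edgeR. Without the second CFIm25 knockdown library the first of these was 0.18 (adjusted p = 0.063), with the remaining library assumed to vary like the other groups. AKT2 was at 330.3 and 338 CPM in CFIm25 knockdown and at 342, 361 and 367 CPM in CFIm68 knockdown, with log2 changes of -0.11 ± 0.06 (adjusted p = 0.12) and -0.02 ± 0.05 (adjusted p = 0.81) in edgeR. The ratio of AKT1 to AKT2 per kb was 1.17 ± 0.0236 in CFIm25 knockdown (n = 2) and 0.987 ± 0.00942 in CFIm68 knockdown (n = 3), against 0.933 ± 0.0138 in control (n = 3), and the groups did not overlap.

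Genes around AKT1 moved mostly in the same direction as AKT1 in the overexpressions. Its 50 nearest tested genes, over 8.70 Mb of chromosome 14, had a median log2 change of 0.18 in CFIm25 overexpression, with 26 higher and 4 lower past the threshold, and of -0.21 in CFIm68 overexpression, with 1 higher and 23 lower. In CFIm25 knockdown 15 were higher and 10 lower, with a median of 0.10. Between CFIm25 knockdown and CFIm25 overexpression, where AKT1 itself differed by 0.00 ± 0.06, 8 were higher and 21 lower in knockdown. With the regional correction the log2 changes of AKT1 were 0.13 in CFIm25 knockdown (adjusted p = 0.086), 0.01 in CFIm25 overexpression (adjusted p = 0.86) and -0.10 in CFIm68 overexpression (adjusted p = 0.22), so no AKT1 change against control passed in edgeR. The fall of AKT2 in CFIm25 overexpression passed with and without this step, at -0.36 as measured and -0.25 with the regional correction. AKT1 also shares 663 exonic bases with an annotated antisense gene, and whether the counting used strand is not given.

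**Figure D3:**
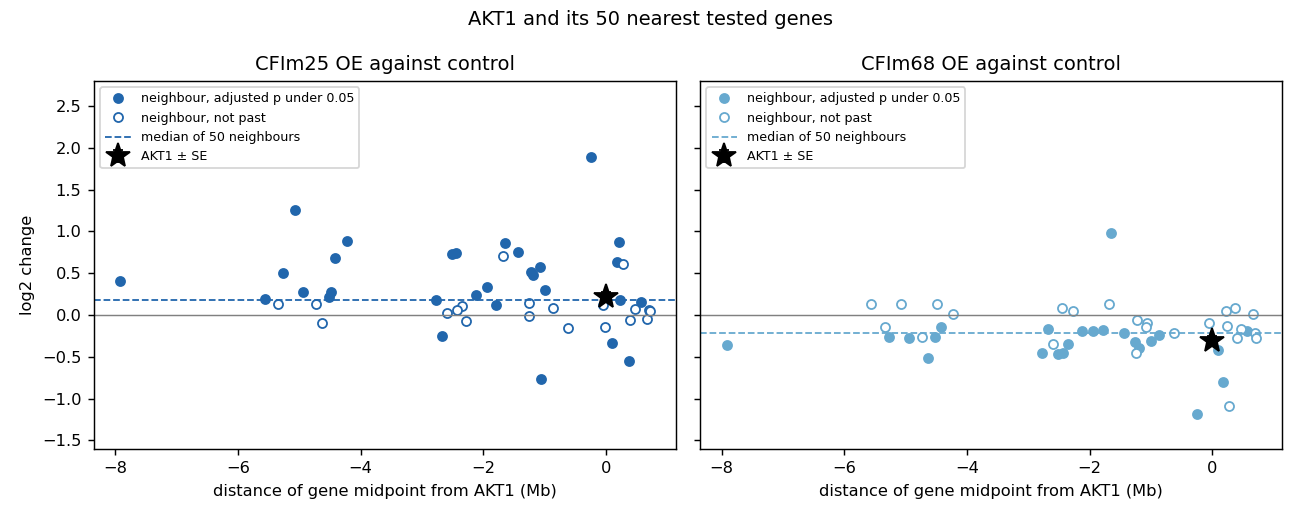
Log2 change of each of the 50 tested genes nearest to AKT1 on chromosome 14 against its distance from AKT1 in megabases, for CFIm25 overexpression (OE, left) and for CFIm68 overexpression (right), each against control, with AKT1 as a star at 0 and filled points past the threshold. The dashed medians are at 0.18 with CFIm25 and -0.21 with CFIm68.

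MTOR itself changed little. It was at 456 and 501 CPM in CFIm25 knockdown, 451, 468 and 484 CPM in CFIm68 knockdown, 496, 472 and 467 CPM in CFIm25 overexpression and 484, 464 and 469 CPM in CFIm68 overexpression, against 525, 504 and 502 CPM in control. All 11 perturbed libraries lay below the 3 controls, by a small margin. Only the CFIm68 knockdown difference passed the threshold, with a log2 change of -0.13 ± 0.05 (adjusted p = 0.026 in edgeR), or 8.37% lower. It was -0.11 (adjusted p = 0.099) without the first CFIm68 knockdown library, -0.13 (adjusted p = 0.064) without the second and -0.11 (adjusted p = 0.11) without the first control. The others were -0.09 ± 0.05 in CFIm25 knockdown (adjusted p = 0.16), -0.09 ± 0.05 in CFIm25 overexpression (adjusted p = 0.099) and -0.11 ± 0.05 in CFIm68 overexpression (adjusted p = 0.079). That of CFIm68 overexpression passed with DESeq2 (-0.12, adjusted p = 0.044), without the first CFIm25 overexpression library, which only shares the dispersion estimate (-0.12, adjusted p = 0.039), and with the regional correction (-0.18, adjusted p = 0.014). The 4 comparisons share the same 3 controls.

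RPTOR and RICTOR, which set apart the 2 mTOR complexes, did not pass the threshold against control in any group. RPTOR was at 9.22 and 9.37 CPM in CFIm25 knockdown and at 9.27, 9.88 and 9.55 CPM in CFIm68 knockdown, against 8.45, 7.70 and 8.59 CPM in control. It was at 7.89, 8.88 and 8.40 CPM in CFIm25 overexpression and at 7.86, 6.24 and 8.03 CPM in CFIm68 overexpression. The knockdown libraries of RPTOR lay above control without overlap, yet the log2 changes of 0.17 ± 0.11 (CFIm25, adjusted p = 0.22) and 0.21 ± 0.10 (CFIm68, adjusted p = 0.082) missed the threshold in edgeR, with approximate 95% intervals of -0.05 to 0.40 and 0.01 to 0.42. The genes around RPTOR on chromosome 17 moved the other way: the 50 nearest had median log2 changes of -0.21 in CFIm25 knockdown, -0.29 in CFIm68 knockdown and -0.34 in CFIm25 overexpression. RPTOR as measured did not move in CFIm25 overexpression, with a log2 change of 0.02 ± 0.11 (adjusted p = 0.89, edgeR), and overlapped control there. With the regional correction, RPTOR was higher relative to these neighbours by 0.37 (adjusted p = 0.0090), 0.49 (adjusted p = 2.1e-04) and 0.35 (adjusted p = 0.0088). These are in the same order, in edgeR. The correction takes the neighbours' median as known, so its p-values leave out the uncertainty of that median.

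RICTOR was at 9.81 and 9.82 CPM in CFIm25 knockdown, 12.1, 10.8 and 12.8 CPM in CFIm68 knockdown, 13.1, 9.96 and 10.4 CPM in CFIm25 overexpression and 11.0, 12.7 and 11.4 CPM in CFIm68 overexpression, against 11.4, 11.9 and 9.43 CPM in control. Every group overlapped control. Log2 changes in edgeR were -0.15 ± 0.12 in CFIm25 knockdown, 0.13 ± 0.11 in CFIm68 knockdown, 0.05 ± 0.11 in CFIm25 overexpression and 0.11 ± 0.12 in CFIm68 overexpression, with adjusted p-values of 0.32, 0.32, 0.73 and 0.52. The approximate 95% intervals reached from -0.39 in CFIm25 knockdown to 0.34 in CFIm68 knockdown. RICTOR shares 229 exonic bases with OSMR on the opposite strand, and OSMR averaged 4.06 ± 0.891 CPM in CFIm25 overexpression, against 9.22 ± 0.775 CPM in control (n = 3 each). Its part in the RICTOR counts was not tested.

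Counted over the 6 tested core genes, the shares past the threshold in either direction were below those of all tested genes. These shares rest on only 6 genes and their difference from all tested genes was not tested. No conclusion about the core genes as a set is drawn from it. In CFIm25 knockdown 2 of 6 passed, TSC1 and AKT1, both higher, against 47.6% of all tested genes (24.4% higher and 23.2% lower). In CFIm68 knockdown 2 of 6 passed, TSC1 higher and MTOR lower, against 56.4% (28.3% higher and 28.1% lower). In CFIm25 overexpression 2 of 6 passed, AKT1 higher and AKT2 lower, against 56.7% (27.7% higher and 29.1% lower). In CFIm68 overexpression AKT1 alone passed, lower, against 29.8% (14.5% higher and 15.4% lower). The median log2 change of the 6 was 0.04, 0.10, -0.04 and -0.07 in that order of comparisons, and that of all tested genes was within 0.01 of 0 in each.

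**Figure D4:**
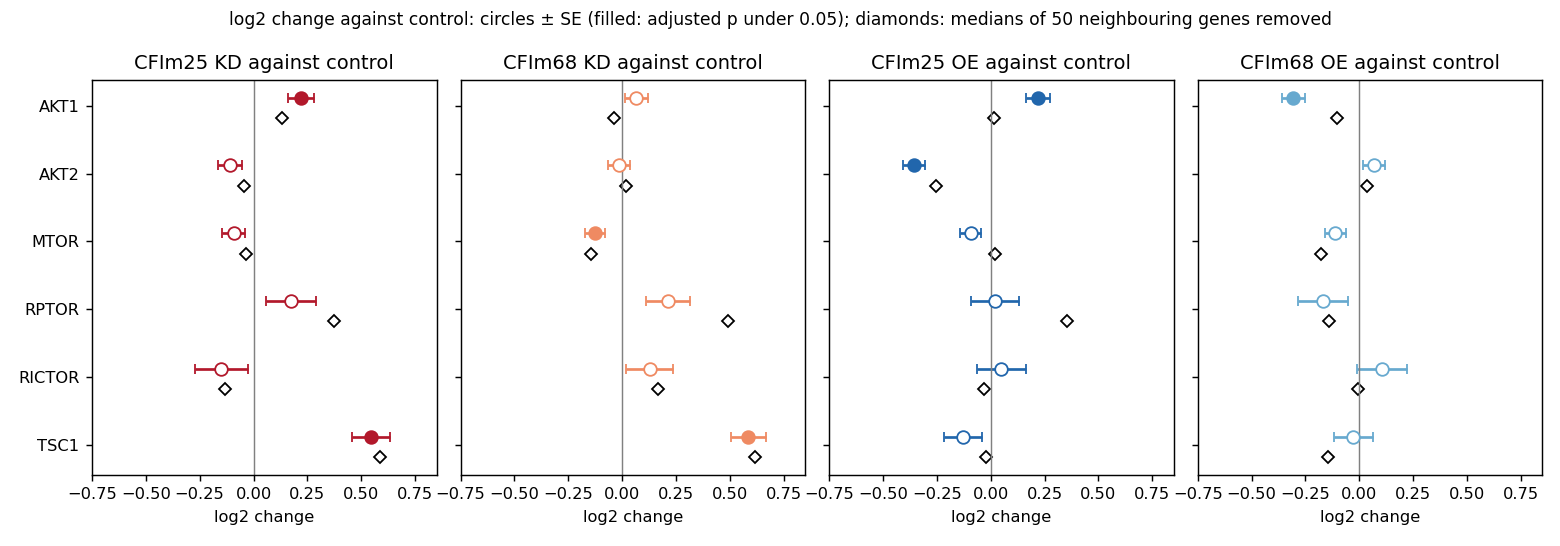
Log2 change of the 6 tested core genes in each comparison with control, for knockdown (KD) and overexpression (OE), where circles with bars of 1 SE are the measured changes, filled past an adjusted p of 0.05 in edgeR, and diamonds are the changes with the regional correction by 50 neighbouring genes. TSC1 stands at 0.55 and 0.59 in the knockdowns, AKT1 is higher in CFIm25 overexpression and lower in CFIm68 overexpression, and most points for MTOR, RPTOR and RICTOR do not pass.

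The 2 knockdowns were also set against each other. None of the 6 core genes passed in CFIm68 knockdown against CFIm25 knockdown by edgeR, where 24.2% of all tested genes did (11.1% higher and 13.2% lower), while 2 had an unadjusted p under 0.05 and DESeq2 called 1, AKT1. TSC1 differed by 0.04 ± 0.08 (adjusted p = 0.77), with an approximate 95% interval of -0.12 to 0.20. AKT1 was lower in CFIm68 knockdown by a log2 difference of -0.16 ± 0.06 (adjusted p = 0.056), and RICTOR higher by 0.28 ± 0.12 (adjusted p = 0.082), in edgeR. In CFIm68 overexpression against CFIm25 overexpression 2 of 6 passed, the AKT genes given above, against 63.7% of all tested genes (32.9% higher and 30.8% lower).

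Knockdown was also set against overexpression of the same subunit, as contrasts of the same fit to all 14 libraries. The knockdowns used siRNA with a lipid reagent and the method of overexpression is not given. In these comparisons the method and the subunit's level cannot be told apart. For CFIm25, 2 of 6 core genes were higher in knockdown than in overexpression, against 56.1% of all tested genes past the threshold (28.6% higher and 27.5% lower): TSC1 by 0.67 ± 0.09 (adjusted p = 2.8e-07) and AKT2 by 0.25 ± 0.06 (adjusted p = 4.8e-04), in edgeR. AKT1 did not differ past the threshold there, with means of 290.7 ± 10.5 CPM in knockdown and 290.7 ± 18.7 CPM in overexpression. For CFIm68, 3 of 6 were higher in knockdown than in overexpression, against 67.1% (33.7% higher and 33.5% lower): TSC1 by 0.61 ± 0.08 (adjusted p = 1.8e-07), RPTOR by 0.38 ± 0.11 (adjusted p = 0.0028) and AKT1 by 0.37 ± 0.05 (adjusted p = 8.9e-07). With the regional correction the AKT1 difference was 0.07 (adjusted p = 0.32).

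Other genes of the pathway were taken from 10 lists of 107 genes, of which 91 were tested. In CFIm25 knockdown 26 of the 91 rose and 25 fell, in CFIm68 knockdown 28 rose and 27 fell, in CFIm25 overexpression 28 rose and 32 fell, and in CFIm68 overexpression 12 rose and 16 fell, all by edgeR. Those are 56.0%, 60.4%, 65.9% and 30.8% of the 91, beside the shares of all genes given above. Counts per list below stand beside the shares of all tested genes. Those were 24.4% higher and 23.2% lower in CFIm25 knockdown, and 28.3% higher and 28.1% lower in CFIm68 knockdown. The lists are small, and no list was tested as a set. The genes named next had the largest rise or fall past the threshold in their list.

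**Figure D5:**
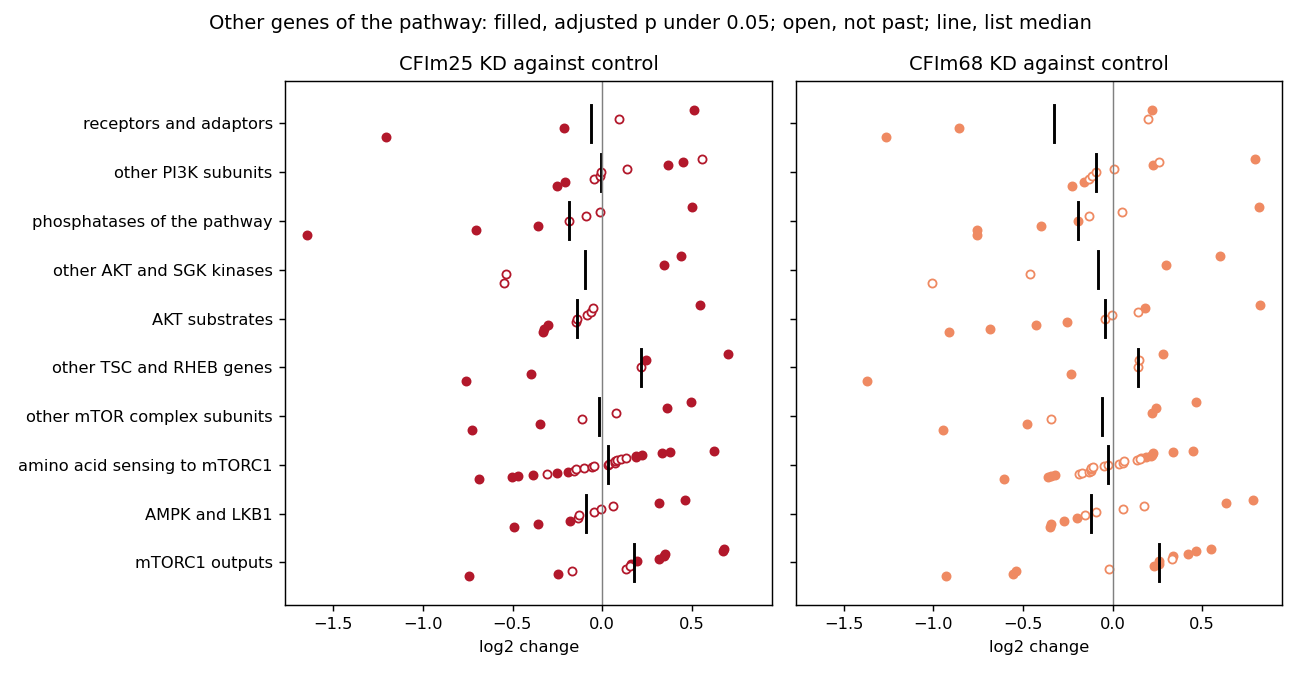
Log2 change of every tested gene of the 10 pathway lists in CFIm25 knockdown (KD, left) and CFIm68 knockdown (right), each against control, with filled points past an adjusted p of 0.05 in edgeR and lines at the list medians. The genes listed as mTORC1 outputs have median changes in mRNA of 0.18 in CFIm25 knockdown and 0.26 in CFIm68 knockdown. The medians over all 91 genes of the lists are -0.04 and -0.02 in the same order.

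Upstream of AKT, IRS1, the adaptor of the insulin receptor, fell in both knockdowns, with log2 changes of -1.21 ± 0.12 in CFIm25 knockdown and -1.27 ± 0.11 in CFIm68 knockdown. IRS1 also fell in CFIm25 overexpression, where it averaged 7.18 ± 0.799 CPM, against 11.2 ± 0.574 CPM in control (n = 3 each). INSR, the insulin receptor, rose by 0.52 ± 0.09 in CFIm25 knockdown and by 0.22 ± 0.09 in CFIm68 knockdown. In CFIm68 knockdown INSR did not pass with the regional correction (0.08, adjusted p = 0.50), without replicate 2 (0.20, adjusted p = 0.094) or replicate 3 (0.20, adjusted p = 0.10) of that group, or without the third control (0.13, adjusted p = 0.24). Of the 4 tested receptors and adaptors, 1 rose and 2 fell in each knockdown. Of the 9 other PI3K subunits tested, 2 rose and 2 fell in each, and with the regional correction 1 rose and 4 fell in CFIm68 knockdown. The catalytic subunit gene PIK3CB led the rises in CFIm25 knockdown at 0.45 ± 0.07, and the regulatory subunit gene PIK3R3 in CFIm68 knockdown at 0.80 ± 0.06.

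Among 7 tested phosphatases that act on the pathway's lipids or on AKT, 3 fell in CFIm25 knockdown and 4 fell in CFIm68 knockdown, the second being 3 with the regional correction. INPP5D, a lipid 5-phosphatase, fell most in CFIm25 knockdown, with a log2 change of -1.65 ± 0.14, and INPP5E most in CFIm68 knockdown, with -0.76 ± 0.07. Of the 9 tested AKT substrates, 1 rose and 3 fell in CFIm25 knockdown and 2 rose and 4 fell in CFIm68 knockdown, where 3 rose and 4 fell with the regional correction. GSK3B, a kinase that AKT inhibits, rose by 0.55 ± 0.07 and 0.83 ± 0.07, and the transcription factor gene FOXO1 fell, with log2 changes of -0.33 ± 0.07 and -0.91 ± 0.07.

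Around TSC1 and RHEB, 5 other genes were tested, of which 2 rose and 2 fell in CFIm25 knockdown and 1 rose and 2 fell in CFIm68 knockdown. After regional correction 3 rose and 1 fell in CFIm25 knockdown, and 2 rose and 1 fell in CFIm68 knockdown. DDIT4, a stress-induced inhibitor of mTOR complex 1, rose by 0.70 ± 0.13 in CFIm25 knockdown. Its relative DDIT4L fell, with -0.76 ± 0.15 in CFIm25 knockdown and -1.37 ± 0.15 in CFIm68 knockdown. Of the 6 other tested subunits and assembly factors of the mTOR complexes, 2 rose and 2 fell in CFIm25 knockdown and 3 rose and 2 fell in CFIm68 knockdown. In CFIm25 knockdown 1 in place of 2 fell with the regional correction. DEPTOR, an inhibitor found in both complexes, rose by 0.49 ± 0.10 in CFIm25 knockdown. TTI1 and TELO2, whose proteins work together in the assembly of mTOR complexes, moved apart in CFIm68 knockdown, with 0.47 ± 0.05 for TTI1 and -0.94 ± 0.10 for TELO2.

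Amino acid sensing upstream of mTOR complex 1 had 25 tested genes, of which 6 rose and 6 fell in CFIm25 knockdown and 7 rose and 4 fell in CFIm68 knockdown. Regionally corrected, 8 rose and 4 fell in CFIm25 knockdown, and 6 rose and 2 fell in CFIm68 knockdown. SESN2, a leucine sensor, rose by 0.63 ± 0.10 in CFIm25 knockdown, and its relative SESN1 fell most in CFIm68 knockdown, with -0.61 ± 0.06. SESN2 also had the largest rise of all 91 genes in each overexpression, by 1.47 ± 0.09 with CFIm25 and 0.62 ± 0.09 with CFIm68. The largest fall of the 91 in CFIm25 overexpression was that of INPP5D, at -2.01 ± 0.14. Of 10 tested genes of AMPK and LKB1, the energy-sensing kinases that oppose mTOR complex 1, 2 rose and 3 fell in CFIm25 knockdown and 2 rose and 4 fell in CFIm68 knockdown. With the regional correction the numbers were 3 up and 4 down in CFIm25 knockdown and 5 up and 4 down in CFIm68 knockdown. The largest rises as measured were in PRKAA2, a catalytic AMPK subunit, by 0.46 ± 0.08 in CFIm25 knockdown and in PRKAG2, a regulatory one, by 0.78 ± 0.12 in CFIm68 knockdown.

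Of 12 tested genes listed as outputs of mTOR complex 1, 7 rose and 2 fell in CFIm25 knockdown, with a median log2 change of 0.18. In CFIm68 knockdown 7 rose and 3 fell, with a median of 0.26. Of all tested genes, 24.4% rose and 23.2% fell in CFIm25 knockdown, and 28.3% rose and 28.1% fell in CFIm68 knockdown. The difference of this list from all tested genes was not tested. These are mRNA levels, and neither the activity of the complex nor the phosphorylation of its targets was measured. After regional correction 5 rose and 1 fell in CFIm25 knockdown, and the CFIm68 knockdown counts were as before. EIF4EBP1, a repressor of translation that mTOR complex 1 inactivates, rose by 0.68 ± 0.09 in CFIm25 knockdown and by 0.46 ± 0.08 in CFIm68 knockdown. EIF4B, a translation initiation factor, rose by 0.68 ± 0.05 and 0.55 ± 0.05 in the same order. ULK1, the kinase that starts autophagy and is inhibited by mTOR complex 1, fell, with -0.74 ± 0.09 and -0.56 ± 0.08. RPS6KB2, an S6 kinase gene, fell most in CFIm68 knockdown, with -0.93 ± 0.06. Several of the pathway list changes were not particular to knockdown. In CFIm25 overexpression IRS1, INPP5D, TELO2 and ULK1 also had the largest fall of their lists. PIK3R3, DDIT4, TTI1, SESN2 and EIF4EBP1 had the largest rise of theirs. Others differed: FOXO1, lower in both knockdowns, averaged 76.8 ± 5.90 CPM in CFIm25 overexpression, against 62.3 ± 3.60 CPM in control (n = 3 each).

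Across the 14 libraries, 9362 tested genes averaging 5 CPM or more were searched for the profiles most like each core gene, by Pearson's r of log2 CPM. The closest were SLC6A8 for AKT1 (r = 0.98), CYB5R3 for AKT2 (r = 0.98), CEP43 for TSC1 (r = 0.97), CCDC124 for RPTOR (r = 0.89), STXBP4 for MTOR (r = 0.82) and PAPOLG for RICTOR (r = 0.79). Between the core genes themselves r was -0.61 for AKT1 and AKT2, 0.65 for RPTOR and TSC1 and 0.60 for AKT1 and RPTOR. These describe profiles over libraries that fall into 5 groups and share those groups' differences, with no test.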

How the data were processed

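RNA from 14 HEK 293 libraries in 5 groups was analysed, with groups taken from the labels. The table that the authors deposited gives unnormalized counts of reads for each gene. Per the submitters' processing notes, cutadapt 1.16, STAR 2.7.1a and the build hg38 were used. The sources used here do not give the counting tool, the annotation it used or whether it used strand. Libraries were made with a stranded mRNA kit, per the labels' protocols. Here edgeR 4.0.16 (in R 4.3.3) was run on the counts after filterByExpr with a minimum count of 10 and a minimum total of 15 and with TMM scaling, fitting 1 coefficient for each group to all 14 libraries by quasi-likelihood. P-values were adjusted by Benjamini-Hochberg over the 12080 tested genes of each of 8 comparisons, with a threshold of 0.05, and the procedure was tested on simulated data. The standard error of a log2 change comes from the quasi-likelihood statistic, and an approximate 95% interval is the change ± 1.96 SE. The common dispersion had a square root of 0.0501, and no library pair agreed within sampling noise. Names, exon lengths and 3′ UTRs came from GENCODE 29.

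Alternatives tried were DESeq2 1.42.0, size factors by median ratios, no filter on low counts, a replicate block, the compared groups only, a regional correction (in each library, the median log2 deviation from the control mean of the 50 nearest tested genes, as an offset), and leaving out each library. The core genes and pathway lists were chosen with earlier results of these data known. The text names all core genes, NUDT21 and CPSF6, the gene with the largest rise and fall past the threshold of each pathway list in each knockdown, the same over all lists in each overexpression, and the closest profiles, and gives a part of these. TSC2 and the genes overlapping a core gene were added because the text turns on them. PIK3CA was not analysed here. The results for certain genes that the rule names are left out.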

Additional observations from a re-analysis of the deposited data

Results flagged for a closer look

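The AKT genes differed between the 2 overexpressions, by a test of the difference itself. AKT1 was lower in CFIm68 overexpression than in CFIm25 overexpression, with a log2 difference of -0.53 (edgeR, adjusted p = 2.4e-09), in 3 of 3 libraries against 3 of 3, and AKT2 was higher by 0.42 (adjusted p = 3.5e-08), likewise in all 3 of each. With the regional correction by 50 neighbouring genes the AKT1 difference was -0.12 (adjusted p = 0.081).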

How the results depend on the processing

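TSC1 passed in both knockdowns under all alternatives run, and AKT2 in CFIm25 overexpression likewise. Of 960 recomputed values of the core genes, 930 kept their side of the threshold, 21 passed where the reported value had not and 9 no longer passed. No called value changed sign. Values that did not pass in either fit were counted among the 930 whatever their sign. In CFIm68 knockdown against CFIm25 knockdown, where no core gene passed, DESeq2, no filter and the replicate block called 1 each (AKT1), and the compared groups only and the regional correction called 2 each (AKT1 and RICTOR). In CFIm68 overexpression DESeq2 called 2 (AKT1 and MTOR). Leaving out 1 library gave 1 to 2 core genes in CFIm25 knockdown, in CFIm68 knockdown and in CFIm68 overexpression against control, and 0 to 2 between the knockdowns. The number of all genes past the threshold between the knockdowns ranged from 1465, without the first CFIm25 knockdown library, to 3344, against 2929 in the reported test. The cause of these shifts was not tested. Replicate numbers did not pair the libraries: correlations of same-numbered deviations ran from -0.06 to 0.17, and in 0 of 10 pairs of groups were all over 0.1. Depth limits RPTOR and RICTOR most, with 112 to 354 counts per library.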
